A study of Homo sapiens with 24 samples.

Results

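The 9 genes that encode subunits of the transcription factor AP-1 in the rule used here (FOS, FOSB, FOSL1, FOSL2, JUN, JUNB, JUND, ATF3 and BATF3) were examined for peaks of S100A8 and S100A9, out of 20098 protein-coding genes of chromosomes 1 to 22 and X. They were chosen by name and not by a rule on measured values, although earlier results of these data were known. A peak was assigned to a gene if its summit, the base with the highest signal, lay in the gene body or within 50 kb to either side, and if its q value, the false discovery rate given by the peak caller, was at most 1e-07. All 9 genes had peaks. Promoter peaks are those with a summit no more than 1500 bp upstream or 250 bp downstream of one of the gene's transcription start sites (TSSs).

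The cells were MCF-10A, a nontransformed line of human breast epithelium, expressing ER-Src, the v-Src oncoprotein joined to the ligand-binding domain of the estrogen receptor, so that 4-hydroxytamoxifen (TAM) switches Src on. All groups share this fusion, and each also carries a retrovirally introduced and selected S100A8-Flag or S100A9-Flag gene beside the endogenous genes, so that only the tagged copy is seen by the Flag antibody. Cells were treated for 24 hours with 1 μM TAM or with ethanol (EtOH), cross-linked first between proteins and then with formaldehyde, and subjected to chromatin immunoprecipitation (ChIP) with a Flag antibody. Lists from 11 libraries were used, with 2 for S100A8-Flag in EtOH and 3 for each of the other 3 conditions, which the labels call biological replicates. RNA and RNA polymerase II were not analysed here, and peak lists do not allow a check of the cell line by its markers.

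AP-1 is a family of dimers that bind DNA through a basic region and pair through a leucine zipper. FOS proteins bind only as partners of JUN proteins, JUN proteins can also pair with one another, and ATF3 and BATF3 pair with JUN proteins as well. FOS, FOSB, JUN, JUNB and ATF3 are known as immediate-early genes whose transcription rises within minutes of a growth or stress signal, and their promoters hold elements for serum response factor, CREB and ATF proteins, or AP-1 itself. S100A8 and S100A9 are small calcium-binding proteins with no known DNA-binding domain.

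The DNA at the promoter sites is shown first, since the results turn on these sites. Each stretch is reference sequence of GRCh37 (hg19), on the strand of the gene, and reads from 5′ to 3′. Capitals mark matches to one of 8 motifs on either strand: AP-1 (TGACTCA), the cyclic AMP response element CRE (TGACGTCA), the variant TGACATCA, ETS (CGGAAG), KLF/SP1 (CCCCGCCC), CEBP (TTGCNNAA), STAT (TTCNNNGAA), and the serum response element. The first 4 stretches lie upstream of the 5′ end of a gene and carry the elements named above. FOS is at chr14:75745529-75748933 and its stretch at chr14:75745189-75745268 on the plus strand, FOSB is at chr19:45971253-45978437 and its stretch at chr19:45970913-45971002 on the plus strand, JUN is at chr1:59242517-59249720 and its stretch at chr1:59249751-59249820 on the minus strand, and JUND is at chr19:18390504-18392432 and its stretch at chr19:18392592-18392662 on the minus strand.
FOS upstream: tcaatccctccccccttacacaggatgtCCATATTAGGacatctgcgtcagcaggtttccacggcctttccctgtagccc
FOSB upstream: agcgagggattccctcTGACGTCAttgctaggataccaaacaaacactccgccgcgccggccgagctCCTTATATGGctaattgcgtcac
JUN upstream: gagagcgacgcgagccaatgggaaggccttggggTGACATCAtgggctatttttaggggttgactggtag
JUND upstream: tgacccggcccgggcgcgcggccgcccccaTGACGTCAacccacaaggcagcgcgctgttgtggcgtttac

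The serum response element of FOS began 312 bp upstream of the 5′ end of the gene, TGACATCA of JUN 66 bp upstream, and the CRE of JUND 200 bp upstream, and all 3 lay inside a site of S100A8 or S100A9. These sites were 2171, 1827 and 1312 bp wide, so lying inside one does not place an element near a summit. The promoter site of FOSB was 769 bp wide and lay inside the gene. The CRE and the serum response element of FOSB, 324 and 273 bp upstream, lay outside every site. So did a TGACATCA of ATF3, 50 bp upstream of its 5′ end and not shown above. Among all 20098 genes, the 350 bp upstream of the 5′ end held the serum response element in 1.69%, the CRE in 2.09% and TGACATCA in 2.08%. A match is a description of the letters and not of a bound factor.

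The next stretches surround the summits of 1 promoter site each of FOSB, FOSL1, FOSL2, JUN, JUNB, ATF3 and BATF3, all in noncoding DNA outside untranslated regions. They reach 50 bp to either side, except that the ATF3 stretch stops where an untranslated region begins. JUND +259, in coding sequence, and the second JUN site, JUN -1233, are not shown. The last 2 were chosen after their values were seen, as the sites outside promoters with an AP-1 motif within 100 bp of the summit that were called in most libraries. The summits lie at chr19:45972482-45972582 for FOSB (intron, plus strand), chr11:65668129-65668229 for FOSL1 (upstream of the gene at chr11:65659520-65668044, minus strand), chr2:28614591-28614691 for FOSL2 (upstream of the gene at chr2:28615315-28640184, plus strand), chr1:59249920-59250020 for JUN (upstream, minus strand) and chr19:12901102-12901202 for JUNB (upstream of the gene at chr19:12902300-12904129, plus strand). Those of ATF3, in a gene at chr1:212738676-212794119 on the plus strand, lie at chr1:212782013-212782102, where an internal TSS is annotated, and at chr1:212732382-212732482, upstream of the gene. That of BATF3, in a gene at chr1:212859759-212873182 on the minus strand, lies at chr1:212872664-212872764 in an intron, and the second FOSL1 stretch lies at chr11:65683315-65683415 between genes.
FOSB +1279: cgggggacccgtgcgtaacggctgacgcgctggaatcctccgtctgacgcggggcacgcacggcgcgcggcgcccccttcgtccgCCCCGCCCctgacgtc
FOSL1 -135: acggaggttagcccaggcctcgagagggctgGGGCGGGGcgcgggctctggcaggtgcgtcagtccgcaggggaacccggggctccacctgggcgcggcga
FOSL2 -674: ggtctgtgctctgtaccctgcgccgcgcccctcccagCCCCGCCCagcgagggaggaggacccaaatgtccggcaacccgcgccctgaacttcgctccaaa
JUN -250: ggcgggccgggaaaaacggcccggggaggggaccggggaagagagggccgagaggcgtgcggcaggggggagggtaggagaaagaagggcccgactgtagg
JUNB -1148: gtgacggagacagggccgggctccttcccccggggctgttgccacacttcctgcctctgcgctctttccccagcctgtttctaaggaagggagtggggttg
ATF3 +43387: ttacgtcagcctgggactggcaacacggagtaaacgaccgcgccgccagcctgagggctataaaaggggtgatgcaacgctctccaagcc
BATF3 +468: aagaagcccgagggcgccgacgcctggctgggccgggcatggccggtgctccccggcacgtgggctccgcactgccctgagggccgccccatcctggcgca
ATF3 -6244: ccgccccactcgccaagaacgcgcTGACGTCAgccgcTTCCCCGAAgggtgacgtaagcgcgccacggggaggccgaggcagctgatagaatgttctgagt
FOSL1 -15321: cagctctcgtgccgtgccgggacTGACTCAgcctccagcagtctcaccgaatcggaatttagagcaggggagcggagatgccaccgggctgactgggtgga

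A site is named by its gene and the distance of its summit in bp from the 5′ end of the gene, with a minus sign for upstream. Of these 9 stretches, those of FOSB, FOSL1 and FOSL2 held KLF/SP1, those of JUN, JUNB, BATF3 and the internal start site of ATF3 held none of the motifs, the distal ATF3 stretch held a CRE and a STAT motif, and the distal FOSL1 stretch held an AP-1 motif.

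The number of peaks near each AP-1 gene was higher in TAM than in EtOH. The libraries themselves differ in the same way, with 1853 to 4609 peaks at q ≤ 1e-07 in the 5 EtOH libraries and 21518 to 40735 in the 6 TAM libraries. The lists give no numbers of reads, so depth is unknown, and a deeper or better enriched library cannot be told apart from more binding by a number of peaks. Differences are therefore given both as numbers of peaks and relative to all peaks of the library.

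FOS, the founding member of the FOS family, had no peak in either S100A8 EtOH library and 1, 1 and 3 peaks in the S100A9 EtOH libraries. In TAM it had 9, 9 and 7 peaks for S100A8 and 5, 8 and 13 for S100A9. The lowest TAM library thus exceeded the highest EtOH library, and the mean difference between TAM and EtOH, averaged over both proteins, was 7.67 peaks.

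FOSB, whose protein lacks or holds an activating tail depending on splicing, had 1 and 3 peaks for S100A8 and 1, 1 and 2 for S100A9 in EtOH, against 15, 9 and 8 for S100A8 and 13, 11 and 15 for S100A9 in TAM. The difference of 10.2 peaks was the highest of the 9 genes, and it was higher than that of 99.2% of all protein-coding genes.

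FOSL1, which encodes FRA-1, had 3 and 5 peaks for S100A8 and 2, 2 and 4 for S100A9 in EtOH, and 11, 7 and 13 for S100A8 and 9, 11 and 14 for S100A9 in TAM. Its window is crowded, with the starts of 9 other protein-coding genes, and the mean difference was 7.5 peaks. FOSL2, which encodes FRA-2, had 0 and 1 peaks for S100A8 and 2, 1 and 1 for S100A9 in EtOH, and 10, 12 and 9 for S100A8 and 9, 8 and 11 for S100A9 in TAM. The TAM libraries of FOSL2 were close to one another, and the difference was 8.92 peaks with only 1 other gene start in the window.

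JUN, the main partner of FOS proteins in the classical AP-1 dimer, had 1 and 0 peaks for S100A8 and 1, 2 and 4 for S100A9 in EtOH, and 5, 5 and 6 for S100A8 and 7, 3 and 6 for S100A9 in TAM. It was the 1 gene whose treatments overlapped, since the third S100A9 EtOH library had more peaks than the second S100A9 TAM library. The difference of 3.92 peaks was the lowest of the 9 genes.

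JUNB, which can oppose JUN at shared targets, had 3 and 2 peaks for S100A8 and 5, 4 and 4 for S100A9 in EtOH, the highest levels in EtOH together with FOSL1. In TAM it had 17, 13 and 6 peaks for S100A8 and 17, 11 and 16 for S100A9, a difference of 9.92 peaks. The third S100A8 TAM library was low and stood 1 peak above the highest EtOH library. JUND, the most constantly expressed JUN gene, had 0 and 1 peaks for S100A8 and 2, 1 and 1 for S100A9 in EtOH, and 10, 4 and 5 for S100A8 and 5, 6 and 8 for S100A9 in TAM, a difference of 5.42 peaks.

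ATF3, a stress-induced member of the CREB and ATF proteins, had 2 and 1 peaks for S100A8 and 1, 2 and 3 for S100A9 in EtOH, and 11, 5 and 7 for S100A8 and 7, 8 and 9 for S100A9 in TAM, a difference of 6.08 peaks. BATF3, best known for its part in the development of dendritic cells, had no peak in any of the 5 EtOH libraries, and 3, 4 and 2 peaks for S100A8 and 6, 7 and 7 for S100A9 in TAM. It was the 1 gene without any peak in EtOH, and its S100A9 TAM libraries lay above its S100A8 TAM libraries.

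**Figure D1:**
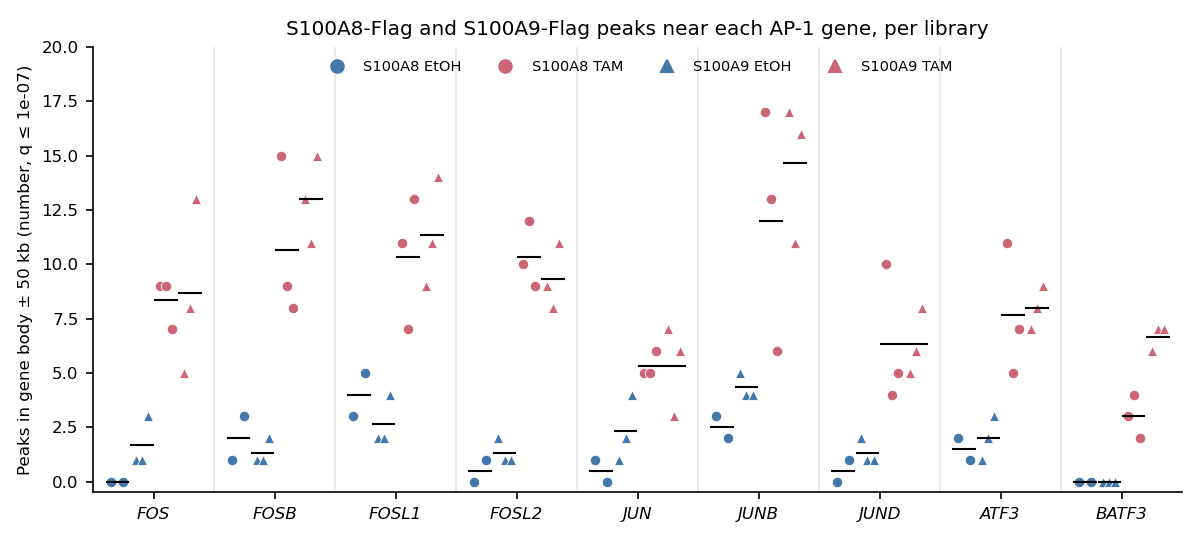
Number of peaks (q ≤ 1e-07) with a summit in the gene body or within 50 kb, for the 9 AP-1 genes on the horizontal axis. Each circle (S100A8) or triangle (S100A9) is 1 library in EtOH (blue) or TAM (red) and each bar is the mean of a condition. The treatments overlap at JUN and at no other gene, and BATF3 has no peak in EtOH.

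The treatments were compared by an exact permutation test of the treatment labels within each protein, two-sided, over 200 arrangements, with Benjamini-Hochberg adjustment over all 20098 genes. All 9 genes passed an adjusted p of 0.05 with more peaks in TAM, as did 60.9% of all protein-coding genes, and 0 of the 9 had fewer (0% of all genes). For 8 of the genes, the exact permutation test gave p = 0.01 (adjusted p = 0.0242), which is the smallest p that it can give, and for JUN it gave p = 0.02 (adjusted p = 0.0391). Every TAM library exceeded every EtOH library at 8 of the 9 genes, against 36.2% of all genes. The median difference was 7.5 peaks for the AP-1 genes and 2.17 peaks for all genes. Per 100 kb of window, the median over the AP-1 genes was 7.87 peaks in TAM and 1.16 in EtOH, and over all genes 1.67 and 0.186. Without the first or without the second S100A8 EtOH library, 0 of the 9 genes passed the adjusted threshold, and 0 of all genes. All 9 still had more peaks in TAM, and the smallest p that the 80 remaining arrangements allow is 0.025. With windows of 10 kb instead of 50 kb, 0 of 9 passed (0 of all genes), and all 9 still had more peaks in TAM, by 1.08 (JUN) to 5.33 (JUNB). At q ≤ 1e-10, 6 of 9 passed, as did 5754 of all 20098 genes. JUN, JUND and BATF3 did not, with adjusted p of 0.0584, 0.0584 and 0.0654 by the exact permutation test. At this cutoff the treatments were without overlap at 6 of the 9 genes, against 25.7% of all genes.

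**Figure D2:**
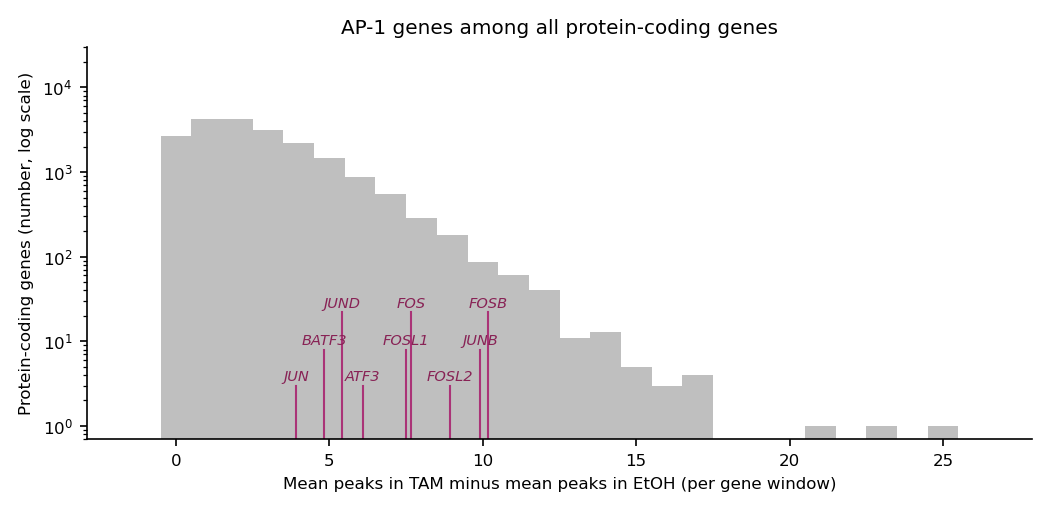
Distribution of the difference in mean number of peaks, TAM minus EtOH, over 20098 protein-coding genes (grey, logarithmic vertical axis), with the 9 AP-1 genes as lines whose heights carry no value. The AP-1 genes range from 3.92 (JUN) to 10.2 (FOSB), and the median of all genes is 2.17.

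Relative to all peaks of the library, the difference did not hold. Per 10000 peaks, 4 of the 9 genes were higher in TAM (51.9% of all genes) and 5 lower (41.4% of all genes). Of the 9, 0 passed the adjusted threshold, and neither did any other gene (0% of all genes). BATF3 was at 0 in every EtOH library and at 1.77 ± 0.767 per 10000 (SD, n = 6) in TAM, with an exact permutation p of 0.01 and an adjusted p of 0.0921. It was also the 1 AP-1 gene at which every TAM library exceeded every EtOH library on this scale, against 7.99% of all genes. FOSL1 was at 8.57 ± 2.34 per 10000 over the EtOH libraries (SD, n = 5) and at 4.04 ± 1.12 over the TAM libraries (SD, n = 6), with p = 0.01 by the exact permutation test and an adjusted p of 0.0921. JUNB was at 11.1 ± 6.83 over the EtOH libraries (SD, n = 5) and at 4.86 ± 1.39 over the TAM libraries (SD, n = 6), with p = 0.03 by the exact permutation test and an adjusted p of 0.189.

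FOSB was nearly level on this scale, with 4.27 ± 1.76 per 10000 over the EtOH libraries (SD, n = 5) and 4.32 ± 0.694 over the TAM libraries (SD, n = 6). JUN was at 4.92 ± 4.59 per 10000 (SD, n = 5) without TAM and 2.01 ± 0.65 (SD, n = 6) with it, and ATF3 at 5.38 ± 3.47 and 2.89 ± 0.665, with exact permutation p values of 0.27 and 0.14. The values of FOS, FOSL2 and JUND differed between treatments by less than 1 peak per 10000.

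**Figure D3:**
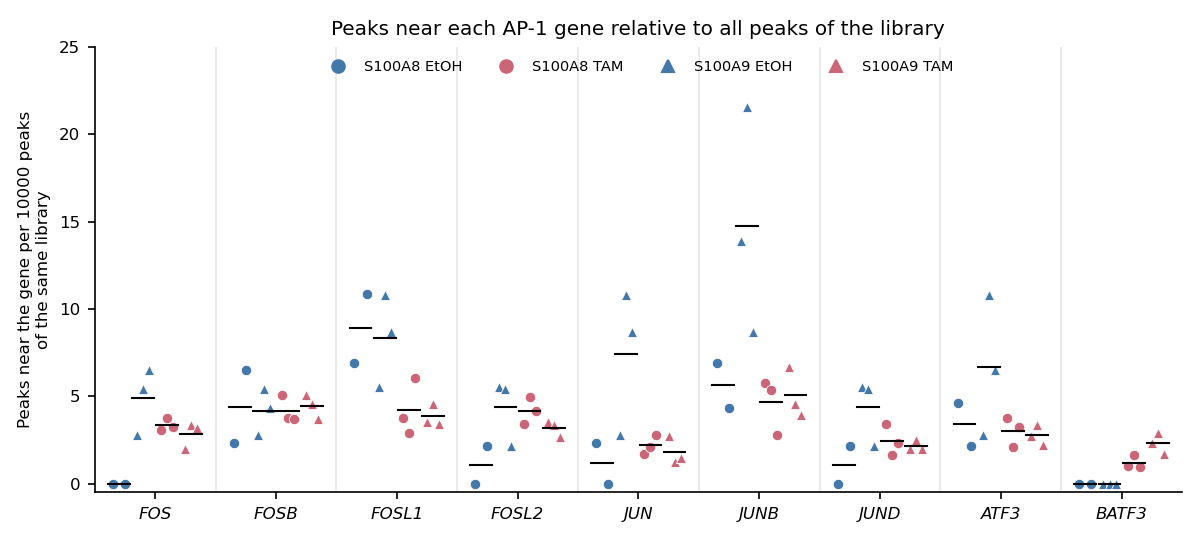
Peaks near each AP-1 gene per 10000 peaks of the same library, with symbols as circles for S100A8 and triangles for S100A9, EtOH in blue and TAM in red, and bars at the mean of each condition. The means of FOSL1 and JUNB are lower in TAM and that of BATF3 is higher, none of them past the adjusted threshold. An S100A9 EtOH library has the highest value at FOS, FOSL2, JUN, JUNB, JUND and ATF3.

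The S100A9 EtOH libraries lay highest on this scale. All AP-1 windows together held 41.7, 75.6 and 47.9 of 10000 peaks in the S100A9 EtOH libraries, and between 23.1 and 30.6 in the other 8 libraries. The highest value belongs to the library with the fewest peaks, 1853, where 1 peak equals 5.40 per 10000. When the 1853 peaks with the lowest q values were taken from every library, the windows held 8, 14 and 13 peaks in S100A9 EtOH, 4 and 4 in S100A8 EtOH, 9, 6 and 6 in S100A8 TAM and 9, 7 and 6 in S100A9 TAM. At this equal number of peaks, BATF3 had 0 in all 11 libraries, and FOS had peaks in the 3 S100A9 EtOH libraries only. These values are a description, since sums over chosen genes were not tested.

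At the promoters, a peak was called in all 6 TAM libraries for 9 of the 9 AP-1 genes, against 15.4% of all protein-coding genes. In EtOH the genes differed. FOS, FOSL2 and BATF3 had a promoter peak in 0 of 5 EtOH libraries, FOSB and JUND in 1, JUN in 2, FOSL1 in 3, and JUNB and ATF3 in 4. Genes with a promoter peak in all 6 TAM libraries and in 0 of 5 EtOH libraries were thus 3 of 9 here and 3.13% of all genes.

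A promoter peak was taken as confident if it was called in at least 2 replicates of a condition. This rule is stricter for S100A8 in EtOH, where it asks for 2 of 2 libraries, than elsewhere, where it asks for 2 of 3. In TAM, 9 of 9 genes had one for S100A8 (39.1% of all genes) and 9 of 9 for S100A9 (45.4% of all genes). In EtOH, 1 of 9 had one for S100A8, which was JUNB (4.98% of all genes), and 3 of 9 for S100A9, which were FOSL1, JUNB and ATF3 (6.17% of all genes). Weaker peaks were present at most promoters in EtOH: with every peak of the lists, down to q = 0.05, 7 of 9 genes had a confident promoter peak for S100A8 (25.4% of all genes) and 8 of 9 for S100A9 (34.2% of all genes). FOS was the 1 gene without one for either protein on that scale. Taking only the 5′ end of each gene as TSS left 6 of 9 in each TAM condition, without FOSB, ATF3 and BATF3. At q ≤ 1e-10, FOSB and FOSL2 had no confident promoter peak for S100A8 in TAM, which left 7 of 9, and ATF3 was the 1 gene left for S100A9 in EtOH. Without the third S100A9 EtOH library, ATF3 was again the 1 gene left for S100A9 in EtOH. Shares of all genes were not computed for the 5′ end rule, for q ≤ 1e-10 or without that library. These counts therefore have no comparison over all genes.

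Among the 1853 peaks with the lowest q values of each library, confident promoter peaks were left at 1 gene for S100A8 (ATF3) and at 2 genes for S100A9 (JUNB and ATF3) in TAM, and at 1 gene for S100A8 (JUNB) and 3 genes for S100A9 (FOSL1, JUNB and ATF3) in EtOH. The share of all genes was not computed at this equal number of peaks, so these counts cannot be read as particular to AP-1 genes.

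The promoter peaks were compared by their fold enrichment over the input of the same library, and by the percentile of that value among the peaks of the library at q ≤ 1e-07. Values exist only for peaks that passed this cutoff, and the lowest passing values differed between libraries. A fold enrichment of 7.18 ranked at percentile 2.86 in the second S100A9 EtOH library, and 4.62 at percentile 0.811 in the third S100A8 TAM library. An EtOH value inside the range in TAM is therefore not evidence of equal binding. JUNB had the strongest one. In TAM, its highest promoter peak had a fold enrichment of 7.62, 9.70 and 13.5 for S100A8 and 18.2, 16.8 and 11.6 for S100A9. The S100A9 peaks ranked at percentiles 99.3, 98.1 and 90.0, and in the first S100A8 TAM library the peak ranked at percentile 41.0. In EtOH, JUNB was at 9.01 and 12.5 for S100A8 and at 9.17 and 9.13 for the first and the third S100A9 libraries.

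JUNB had a pair of promoter sites. In 5 of the 6 TAM libraries the highest summit lay 1100 to 1154 bp upstream of the TSS, and in the second S100A8 TAM library 39 bp downstream of it. In EtOH, the first S100A8 library had it 1137 bp upstream, and the other 3 had it 35, 100 and 27 bp downstream.

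ATF3 had a promoter peak in TAM of 15.2, 9.12 and 9.85 for S100A8 and 14.3, 9.03 and 8.26 for S100A9, and in EtOH of 7.31 in the first S100A8 library and 9.54, 10.2 and 12.4 in the S100A9 libraries. The EtOH values of S100A9 lie within the range of the TAM values. All of these summits lay more than 43 kb from the 5′ end of the gene and within 227 bp of an internal TSS, and the distal 5′ end itself had no promoter peak.

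JUN had a TAM promoter peak of 9.58, 9.49 and 12.0 for S100A8 and 11.8, 10.9 and 9.79 for S100A9, all with a summit 161 to 263 bp upstream of the 5′ end. These 6 values spanned percentiles 76.5 to 92.7, the narrowest range of the 9 genes. FOSL1 had 8.18, 6.40 and 14.3 for S100A8 and 8.15, 12.2 and 13.5 for S100A9 in TAM, with every summit within 135 bp of a TSS. In EtOH it had 8.26 in the second S100A8 library and 9.04 and 9.25 in the second and the third S100A9 libraries, inside the range in TAM. The first S100A8 and the first S100A9 EtOH libraries had only a promoter peak that missed the cutoff.

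FOS had 9.02, 7.55 and 6.20 for S100A8 and 10.5, 8.57 and 12.7 for S100A9 in TAM. Of the 6 summits, 4 lay within 43 bp of a TSS, while those of the second and the third S100A8 libraries lay 195 and 1422 bp upstream. FOSL2 had 8.18, 6.89 and 6.73 for S100A8 and 10.97, 8.41 and 9.90 for S100A9, which made FOS and FOSL2, beside BATF3, the genes with promoter peaks in TAM alone at q ≤ 1e-07.

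FOSB had the weakest set by rank, with 10.6, 6.57 and 6.42 for S100A8 and 6.91, 9.87 and 7.14 for S100A9 in TAM, a median percentile of 31.4. Its summits lay 1178 to 2405 bp inside the gene, near internal start sites. JUND had 9.33, 5.91 and 7.97 for S100A8 and 9.63, 11.04 and 8.66 for S100A9 in TAM, and in EtOH 10.9 in the first S100A9 library. BATF3 had 6.88, 10.5 and 9.27 for S100A8 and 8.61, 11.4 and 4.50 for S100A9, and the last of these ranked at percentile 0.797 in its library. Its summits lay 420 to 600 bp inside the gene, upstream of an internal TSS.

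**Figure D4:**
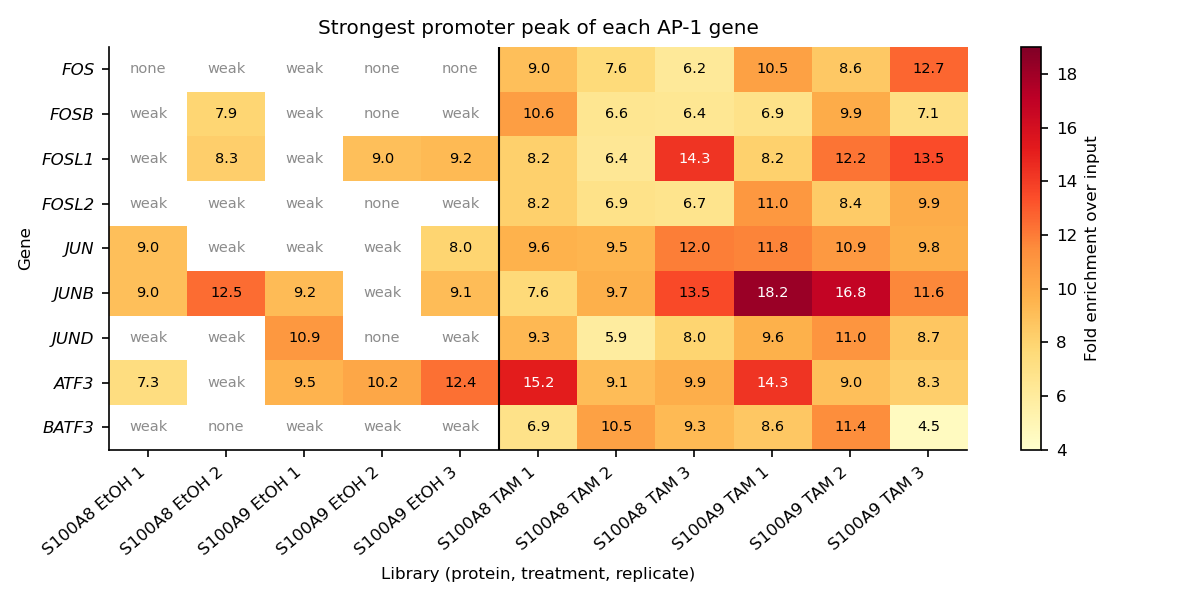
Fold enrichment over input of the strongest promoter peak at q ≤ 1e-07, for 9 AP-1 genes (rows) in the 5 EtOH and 6 TAM libraries (columns, separated by the line). Libraries marked weak have a promoter peak that misses q ≤ 1e-07, and those marked none have no promoter peak in the list. All 6 TAM columns are filled for every gene, and FOS, FOSL2 and BATF3 are empty in EtOH.

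The peaks of the libraries were joined into union sites, that is confident regions of the 4 conditions merged where they overlap. Of 30322 union sites, 84 lay in the windows of the AP-1 genes: 14 at JUNB, 12 at FOSL1, 11 each at FOS and FOSB, 10 at FOSL2, and 7 each at JUN, JUND, ATF3 and BATF3. The 2 genes ATF3 and BATF3 are neighbors on chromosome 1 and share 2 of these sites, at chr1:212829386-212829694 and chr1:212838601-212838926. A peak in a window is not evidence of a link to the AP-1 gene, since 19 of the 84 sites lay at the promoter of another protein-coding gene and 14 in the body of another. Only 12 lay at a promoter of the AP-1 gene itself, 7 in its body, and 32 between genes.

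The 12 promoter sites were FOS +26, FOSB +1279, FOSL1 -135, FOSL2 -674 and +485, JUN -250 and -1233, JUNB -1148 and +35, JUND +259, ATF3 +43387 and BATF3 +468. The summits of FOS +26 and JUNB +35 lay in 5′ untranslated regions, that of FOSL2 +485 in an untranslated exon part of at least 1 annotated transcript, and that of JUND +259 in coding sequence. The summit of JUND +259 was that of the first S100A9 EtOH library, and the TAM summits of this site lay 105 to 777 bp away. FOS +26, BATF3 +468 and both FOSL2 sites were called in 0 of 5 EtOH libraries, and JUNB +35 in 4 of 5, the highest number together with JUN -250 and ATF3 +43387. In TAM, FOSL2 -674, FOSL2 +485 and JUN -1233 were called in 4, 4 and 3 of 6 libraries, JUNB +35 in 5, and the other 8 in all 6.

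The surroundings of the sites differed between the genes. FOS had 10 of its 11 sites between genes, and FOSL2 7 of 10. At FOSL1, 7 of 12 sites lay at promoters of neighbors, among them CFL1, MUS81, EFEMP2, FIBP, CCDC85B and DRAP1. At JUNB, 5 of 14 lay at promoters and 6 in bodies of other genes, 5 of the latter in the HOOK2 gene model, which runs across JUNB in this annotation. At FOSB, 5 of 11 lay at promoters of ERCC1 or VASP and 5 more in bodies of ERCC1 or RTN2.

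No AP-1 site was called in all 11 libraries, as were 105 of the 30322 union sites (0.346%). There were 3 AP-1 sites called in 10 libraries. The first was JUN -250, at chr1:59248879-59250705, which covers 1827 bp and was missed by the second S100A8 EtOH library. Its fold enrichment ranged from 8.47 to 12.0. In the S100A9 EtOH libraries its strongest summits lay 610 to 899 bp from the summit of the site in the direction of the gene body, while those of the TAM libraries lay within 89 bp of it, so that a promoter peak was called in only 1 of them.

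The second was ATF3 +43387, at chr1:212780961-212783065, again missed by the second S100A8 EtOH library. The third was FOSL1 -18752, at chr11:65686030-65687047, which is the promoter region of DRAP1 and C11orf68 and was missed by the first S100A8 EtOH library. It held the highest fold enrichment of the 3, with 13.0, 20.6 and 10.3 for S100A8 and 19.2, 13.1 and 13.5 for S100A9 in TAM, against 7.87 in the second S100A8 EtOH library and 8.05, 10.9 and 7.52 for S100A9 in EtOH. All 6 TAM values except that of the third S100A8 library exceeded all EtOH values. The S100A9 EtOH summits lay 308, 8 and 700 bp from the summit of the site, and that of S100A8 EtOH 47 bp. Those of the TAM libraries lay within 34 bp of it. The site was not confident for S100A9 in EtOH, so the EtOH values are partly from other positions than the TAM values.

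Other sites near AP-1 genes were called in fewer libraries. The highest numbers for the other genes were 9 libraries at JUNB, reached by JUNB -1148, JUNB +35 and JUNB +2109, 8 at FOSB (FOSB -24284) and at FOSL2 (FOSL2 +45225), 7 at JUND (JUND +259 and JUND -41672), and 6 at FOS (FOS -24175 and FOS +26) and at BATF3 (BATF3 +468). JUNB +2109, just past the 3′ end of JUNB, was called in all 3 S100A9 EtOH libraries and in neither S100A8 EtOH library. Its fold enrichment in the S100A9 EtOH libraries was 9.17, 8.71 and 16.0, and in the S100A9 TAM libraries 10.7, 8.14 and 5.32.

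ATF3 -6244, the site whose sequence holds a CRE and a STAT motif, was called in both S100A8 EtOH libraries, at 6.82 and 7.27, and in 0 of 3 S100A9 EtOH libraries. In TAM it was at 6.93, 17.0 and 9.25 for S100A8 and 13.2, 12.6 and 9.04 for S100A9. FOSL1 -15321, which holds an AP-1 motif, was called in 1 of 5 EtOH libraries, at 8.65, and in all TAM libraries, at 16.6, 8.54 and 7.64 for S100A8 and 13.4, 12.8 and 4.77 for S100A9. The EtOH values lay at the lower end of the TAM range at ATF3 -6244 and inside it at FOSL1 -15321, among the libraries whose peak passed the cutoff.

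**Figure D5:**
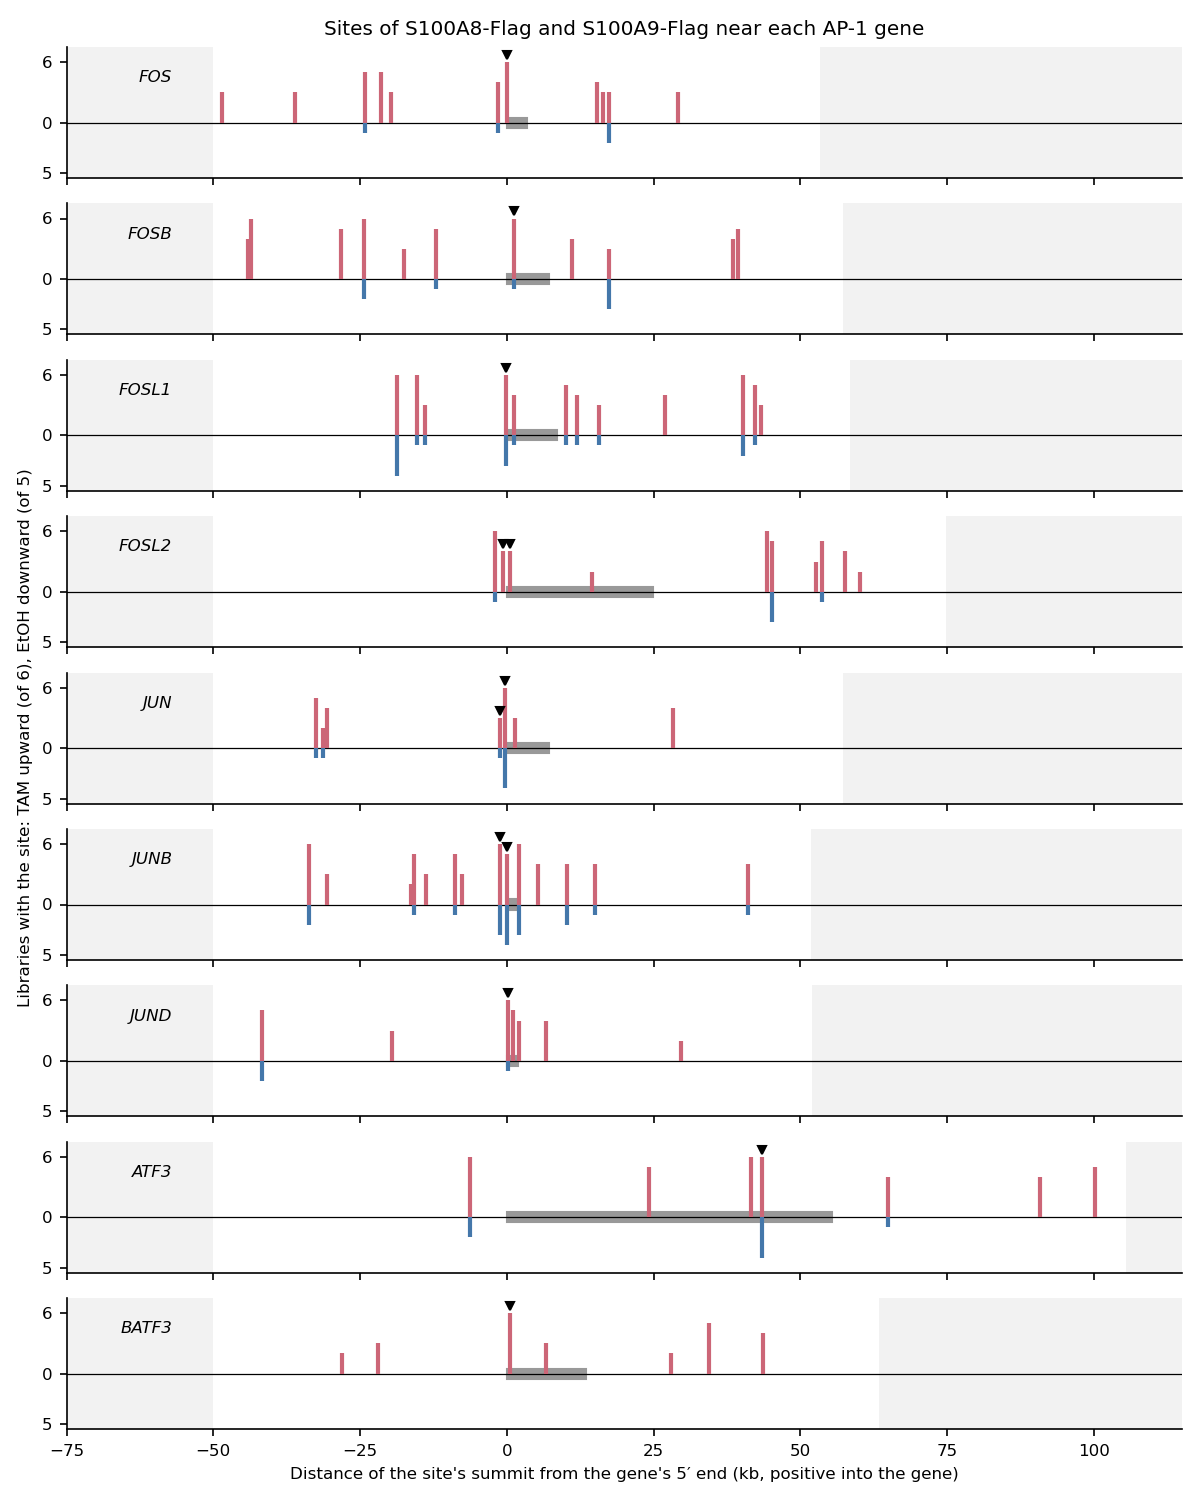
Sites near each AP-1 gene by the distance of the summit from the 5′ end of the gene in kb, positive in the direction of transcription. Bars upward give the number of TAM libraries with the site (of 6) and bars downward the number of EtOH libraries (of 5), the grey box is the gene body, triangles mark promoter sites of the gene and shaded areas lie outside the window. No site has EtOH bars alone, and BATF3 has no EtOH bar.

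Of the 84 sites, 46 (54.8%) were called in no EtOH library, against 68.9% of all union sites, and 19 (22.6%) were called in all 6 TAM libraries, against 14.3%. In EtOH, 2 of the 84 were confident for S100A8 (2.38%, against 4.01% of all) and 11 for S100A9 (13.1%, against 4.54% of all). Since the union keeps sites that passed in at least 1 condition, most of them in TAM, these shares were not tested. In EtOH a confident site takes 2 of 2 libraries for S100A8 and 2 of 3 for S100A9.

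S100A8 and S100A9 shared most AP-1 sites in TAM. Of the 84 sites, 49 (58.3%) were confident for both proteins in TAM, 9 for S100A8 alone and 26 for S100A9 alone, against 42.8%, 17.4% and 39.5% of all union sites. At the 49 shared sites, the highest S100A8 and S100A9 summits lay a median of 46 bp apart (quartiles 17 and 82 bp), and over all 12965 shared sites 33 bp apart (quartiles 15 and 66 bp).

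The number of peaks did not differ detectably between the proteins. By an exact permutation test of the protein labels within each treatment, two-sided, 0 of the 9 AP-1 genes passed an adjusted p of 0.05, and neither did any other gene (0% of all genes). At an unadjusted p under 0.05 there were 0 of 9 AP-1 genes and 130 of all genes. The difference S100A9 minus S100A8 ranged from -0.17 peaks at FOSL1 to 2.25 at JUNB, with exact permutation p values of 0.91 and 0.25. At BATF3 it was 1.83 with an exact permutation p of 0.1, and in TAM alone 3.67 peaks, where the 3 libraries of each protein did not overlap. The TAM effect at BATF3 was larger for S100A9 than for S100A8 by 3.67 peaks, with an exact permutation p of 0.1 (adjusted p = 1), and no AP-1 gene had an unadjusted p of 0.05 or less for this interaction.

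Motifs were counted on both strands within 100 bp of 1 summit per site, that of its peak with the highest percentile. The AP-1 motif was found at 12 of 84 sites (14.3%), against 25.8% of all union sites. Among sites outside any promoter it was found at 9 of 53, against 34.9% of all such sites, and among the 12 promoter sites of AP-1 genes at 1, in FOSL2 +485, against 8.31% of all promoter sites. The CRE was found at 2 of the 84 sites, ATF3 -6244 and FOSB +38530 at the promoter of VASP, against 1.18% of all sites. JUND +259 was scanned around the summit of the first S100A9 EtOH library, so the CRE of JUND, 200 bp upstream, is not counted. In TAM, the strongest JUND promoter summits lay at -518, -74 and -225 bp from the 5′ end for S100A8. For S100A9 they lay at -177, -158 and 154 bp. KLF/SP1 was found at 17 of 84 sites (20.2%, against 10.5% of all) and at 5 of 12 promoter sites (23.1% of all promoter sites). ETS was found at 14 of 84 sites (16.7%, against 13.3% of all), CEBP at 5 (5.95%, against 11.8%) and STAT at 3 (3.57%, against 5.69%). The serum response element was found at 0 of 84 sites within this window and at 0.643% of all union sites, and the one in the FOS promoter lay farther from the summit.

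Other genes of the AP-1 network, in 3 lists, also had more peaks in TAM. Among 20 other bZIP genes, which encode further partners and relatives of AP-1, 19 passed with more peaks and 0 with fewer, and the median difference was 3.58 peaks. The largest differences were at BACH2, a repressor of the same zipper family, with 9.58 peaks, and at CREB5 with 7.25. MAF had a difference of 1.42 peaks.

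Among 20 kinases and serum response factors that act upstream of AP-1, 16 passed with more peaks and 0 with fewer, with a median difference of 2.71. MAPK9, a JUN kinase, had 6.33 and MAP2K1 6.25, while MAP2K4 had 1.08 and the ETS factor ELK1 had 1.0 peak (adjusted p = 0.355 by the exact permutation test). Among 23 known AP-1 target genes, 16 passed with more peaks and 0 with fewer, with a median of 3.58. DUSP1, a phosphatase that inactivates MAP kinases, had the largest difference of the 3 lists, with 3, 3, 3, 3 and 4 peaks in the EtOH libraries and 16, 14, 15, 19, 17 and 23 in the TAM libraries, a difference of 14.2. ITGA5 had 7.75, and the smallest differences were at PTGS2 with 1.17 (adjusted p = 0.0862) and AREG with 0.5 (adjusted p = 0.291), both by the exact permutation test. All of these counts stand beside the 60.9% of all genes that passed.

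The 3 genes elsewhere in the genome whose number of peaks followed the sum over the AP-1 genes most closely were SBNO2, MARCO and BACE2, with Pearson r of 0.995, 0.993 and 0.991 over 11 libraries. SBNO2 had 1, 3, 3, 2 and 3 peaks in EtOH and 22, 16, 16, 18, 19 and 23 in TAM. The total number of peaks per library followed that sum with r = 0.983, so these correlations share the size of the lists.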

How the data were processed

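The peak lists come from anti-Flag ChIP of 11 libraries. The authors used Bowtie2 to align reads to hg19 and kept those that mapped uniquely, and MACS2 then called peaks library by library against the matching input, without pooling. Versions are not given in the sources used here. In the deposited lists the fold enrichment is a ratio of signal to input at the summit, and the −log10 q value and −log10 p-value are those of the authors' MACS2. The deposited score is a scaled −log10 q and was not used. No read numbers are listed, so the depth, and with it any counting interval, is unknown.

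Genes were taken from GENCODE 44 on GRCh37, protein-coding only. No peak ends past a GRCh37 chromosome. Computation used Python 3.11.15, numpy 2.4.6 and pandas 2.3.3. Peaks at q ≤ 1e-07 were counted per gene and compared by exact permutation, with labels permuted within protein or treatment, and Benjamini-Hochberg adjustment over all genes. The test was checked on simulated counts. Where printed values are medians or counts over the AP-1 genes, they are descriptions without a test.

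The members and lists were chosen with earlier results of these data known. All AP-1 genes were named, with the 2 largest and 2 smallest differences of each list, the 3 genes most like them, each gene's promoter sites and its site called in most libraries, with ties. Alternatives were every deposited peak, q ≤ 1e-10, equal numbers of top peaks, other windows, other promoter limits, omission of each library, the replicate number as a block, a log2 statistic and peaks per 10000. Input and polymerase II samples were not used here. The values of 1 gene of the bZIP list are not reported here.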

Additional observations from a re-analysis of the deposited data

How the results depend on the processing

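Of the 9 AP-1 genes, the number that passed the adjusted threshold with more peaks in TAM was 0 with the same number of top peaks in every library, 0 per 10000 peaks of the library, 0 with windows of 10 kb and 6 at q ≤ 1e-10, while the number with a higher mean in TAM was 4, 4, 9 and 9. Among all 20098 genes, 0, 0, 0 and 5754 passed in the same order. Per 10000 peaks, 51.9% of all genes were higher in TAM. With the top peaks, the difference changed sign at FOS (-0.67), JUN (-0.42), JUNB (-1.25) and JUND (-0.0833), and per 10000 peaks at FOSL1 (-4.58), JUN (-2.29), JUNB (-5.33), JUND (-0.43) and ATF3 (-2.16). The number without overlap between treatments was 0 with the top peaks, 3 with windows of 10 kb, 1 per 10000 and 6 at q ≤ 1e-10. Over all genes it was 6 genes with the top peaks, and 15.7%, 7.99% and 25.7% of genes in the other settings. Confident promoter peaks with every deposited peak were 7 for S100A8 and 8 for S100A9 in EtOH, with −log10 q of at least 10 (q ≤ 1e-10) they were 1 for S100A9 in EtOH and 7 for S100A8 in TAM, and with the top peaks they were 1 for S100A8 and 2 for S100A9 in TAM. The cause was not tested.

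Sites near AP-1 genes numbered 147 with at least 1 replicate, 46 with every replicate, 55 at −log10 q of at least 10, 141 with every peak and 15 with the top peaks. Those confident for both proteins in TAM numbered 86, 19, 26, 96 and 2 in the same order, and those confident in EtOH 40, 5, 3 and 46, in the same order without the top peaks. Each setting was applied to the union sites of the whole genome as well. Without shares of those beside them, these numbers are not a result about AP-1 genes.

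Leaving out each library in turn, the number that passed with more peaks in TAM ranged from 0 to 9, although all 9 had a higher mean in TAM each time, the number without overlap ranged from 8 to 9, and the number that passed with more peaks in S100A9 from 0 to 0. Without the second S100A9 EtOH library, 8414 of all genes passed with more peaks in TAM and 37% showed no overlap. Without the third S100A8 TAM library these values were 9549 and 42.5%. Over the same omissions, confident promoter peaks ranged from 9 to 9 in both TAM conditions and from 1 to 2 for S100A9 in EtOH. Shares of all genes with such peaks were not computed for these omissions. For S100A8 in EtOH, leaving out a library leaves 1, so no value can be given. Omitting the first or the second S100A8 EtOH library left 0 of all genes past the adjusted threshold. The replicate numbers gave little sign of pairing: deviations from the condition means correlated between -0.05 and 0.13 over 5 pairs. With 2 or 3 libraries per condition, this cannot settle whether libraries of the same number were prepared together. With a replicate block, 0 of 9 genes passed with more peaks in TAM and 0 with more in S100A9, and the smallest p that 32 arrangements allow is 0.0625. For the treatments, this block leaves out the third S100A8 TAM library, which has no partner. There, 8 genes showed no overlap, against 42.5% of all genes over the same libraries. The number of libraries limits all p values, and the unknown depth limits every comparison of peak numbers.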
